A study of Mus musculus with 46 samples.

Results

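Metabotropic serotonin receptors are the members of the serotonin receptor family that signal through G proteins rather than forming an ion channel. The genes described are Htr1a, Htr1b, Htr1d, Htr1f, Htr2a, Htr2c, Htr4, Htr5b, Htr6 and Htr7, taken by name, which is 10 of the 22800 genes in the count table by gene symbol. They were followed across 46 single neurons by the share of cells with a read, the level in those cells and the receptor genes read together in 1 cell.

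The neurons were oriens-lacunosum moleculare (OLM) interneurons, inhibitory cells of the hippocampal stratum oriens whose axons reach the outer dendrites of pyramidal cells. There were 23 cells from mice carrying an Htr3a-Cre driver (the Htr3a line) and 23 from mice carrying an Sst-Cre driver (the Sst line), all between postnatal days 21 and 30. In both lines the cytosol of a cell was drawn into a patch pipette, and the labels give every cell as anatomically OLM and past quality control. No label ties a cell to an animal. Each driver line was therefore a single sample, and the lines were set side by side without a test.

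Serotonin from raphe axons acts on hippocampal neurons through receptors of several coupling classes. Receptors of the Htr1 group couple to Gi/o proteins, which lower cyclic AMP and open GIRK potassium channels, and Htr5b is placed with them here. Htr2 receptors couple to Gq/11 and phospholipase C, while Htr4, Htr6 and Htr7 receptors couple to Gs and raise cyclic AMP.

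Assigned reads per library had a median of 15336981 for the Htr3a line (range 3391829 to 26136222), against 16726879 for the Sst line (range 5639490 to 31386369). The number of genes read per cell had a median of 8169 for the Htr3a line (range 3350 to 12693), against 6569 for the Sst line (range 3225 to 8774). After each cell was thinned to 5000000 reads, the medians were 7889.5 genes in 22 Htr3a-line cells and 6480 in 23 Sst-line cells. Markers of OLM and inhibitory cells were present: Sst, Crhbp, Gad1 and Gad2 had reads in 23 of 23 cells of each line. Other OLM markers were missing from more cells: among Htr3a-line cells Npy was found in 21, Elfn1 in 18, Pnoc in 14 and Chrna2 in 10, and among Sst-line cells Npy in 16, Elfn1 in 15, Pnoc in 13 and Chrna2 in 6. Few Gad1 reads were found in Htr3a-line replicates 4 (4 reads) and 20 (24 reads), and replicate 10 of that line had the most genes read, 12693. Transcripts of other cells were present too. The summed level of 9 microglial markers had a median of 477 CPM (counts scaled to a total of 1000000 assigned reads per cell) for the Htr3a line (0 to 8176) and 674 CPM for the Sst line (0.0536 to 9702). That of 8 pyramidal markers had a median of 41.5 CPM for the Htr3a line (0 to 258) and 24.8 CPM for the Sst line (0 to 270). Of these, Camk2a was found in 14, Nrgn in 16 and Fibcd1 in 10 cells of the Htr3a line, and Camk2a in 17, Nrgn in 9 and Fibcd1 in 6 of the Sst line. Spink8 was at 0 in all cells and Slc17a7 had reads in 2 cells, both of the Htr3a line.

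The 100 bases just before the outermost annotated start are shown for 3 genes, from RefSeq on GRCm38.p6 and read on the gene's strand. They are Htr1a and Htr2a, which were most often read in the same cell, and Htr1f. Of the 5 genes read in cells of 1 line, Htr1f was read in the most cells. Capitals mark GGGCGG or its reverse complement CCGCCC, a GC box.
Htr1a, chr13:105443539-105443638, plus strand: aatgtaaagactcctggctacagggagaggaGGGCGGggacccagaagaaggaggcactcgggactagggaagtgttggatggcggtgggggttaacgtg
Htr2a, chr14:74640740-74640839, plus strand: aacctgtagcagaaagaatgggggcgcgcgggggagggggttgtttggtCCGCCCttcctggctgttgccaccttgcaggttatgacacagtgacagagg
Htr1f, chr16:65105855-65105954, minus strand: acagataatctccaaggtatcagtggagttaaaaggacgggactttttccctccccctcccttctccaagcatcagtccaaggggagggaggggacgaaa
The Htr1a and Htr2a windows held the motif on either strand and the Htr1f window did not. Among windows not shown, those of Htr1d and Htr6 held the motif and those of Htr1b, Htr2c and Htr7 did not. Over 16221 such windows of mouse genes, 31.2% held it. TATAAA, searched the same way, was in none of the 3 windows and in 5.22% of all windows.

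Receptor reads were sparse. Of the 10 genes, 9 had a read in at least 1 cell, but the most often read, Htr2a, was found in 21 of 46 cells, and 4 genes were read in at least 5 cells. A gene with any read was found in a median of 19 of 46 cells over the 16032 such genes, and 34.1% of them were read in 9 or fewer cells. At least 1 receptor gene was read in 18 of 23 Htr3a-line cells (78.3%, 95% interval 56.3 to 92.5) and in 14 of 23 Sst-line cells (60.9%, 38.5 to 80.3). With at least 10 CPM required, these were 15 Htr3a-line cells (65.2%) and 12 Sst-line cells (52.2%). The intervals of the lines overlap. All intervals are exact Clopper-Pearson 95% intervals for shares and exact Poisson 95% intervals for summed levels. Those for shares cover counting error only and treat cells as independent draws, though no label ties a cell to an animal. Those for summed levels cover error in counting reads only, not the spread between cells. No molecular identifiers are named, so the summed-level intervals do not cover error in counting molecules either.

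**Figure D1:**
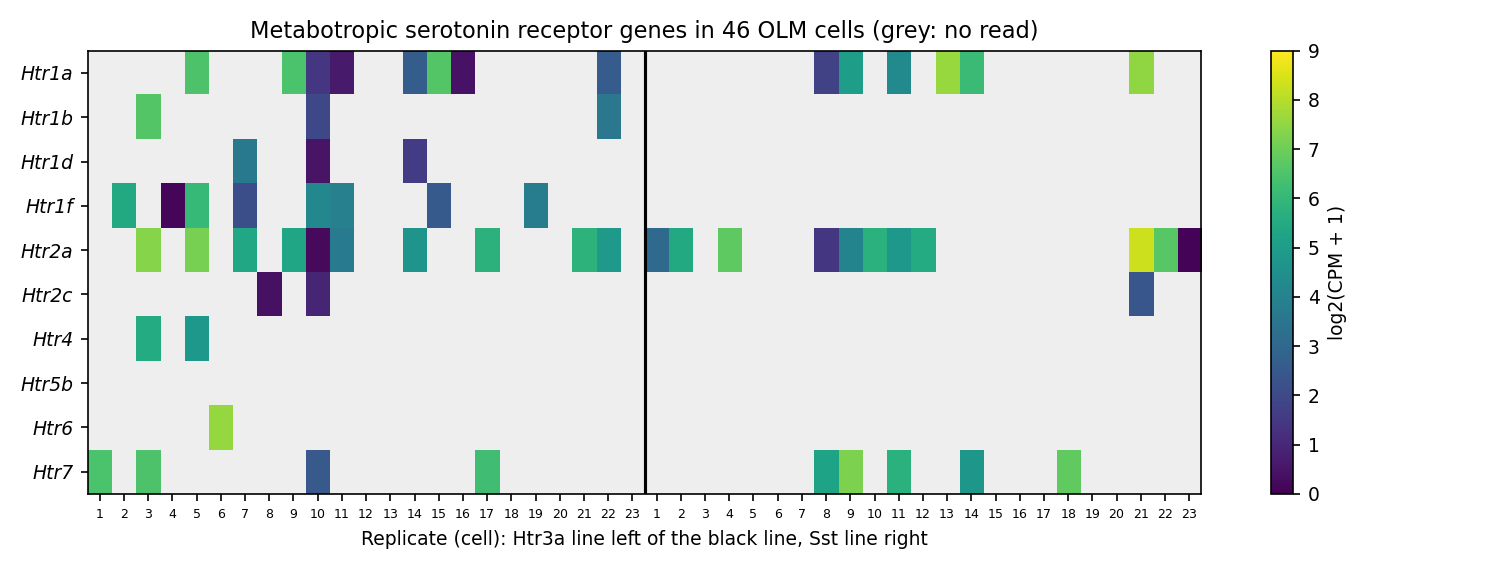
Level of each receptor gene in each of the 46 cells as log2(CPM + 1), with genes down the page and cells across it, Htr3a line left and Sst line right of the black line; grey means no read. Htr1a, Htr2a, Htr2c and Htr7 have coloured cells in both lines, and Htr1b, Htr1d, Htr1f, Htr4 and Htr6 in the Htr3a line alone. Htr3a-line replicate 10 has 7 coloured genes.

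Between the lines, 7 of 10 receptor genes were read in more Htr3a-line cells and 2 in fewer. Over all 16032 genes with a read, 62.6% were read in more Htr3a-line cells and 21.6% in fewer. Htr1b, Htr1d, Htr1f, Htr4 and Htr6 were read in Htr3a-line cells and in 0 Sst-line cells. Of genes read in 1 to 9 cells, 32% were read in the Htr3a line and in 0 Sst-line cells, and 14.4% the other way round. No receptor gene was read in the Sst line alone, as 4.91% of all genes with a read were, while 10.9% of those were read in the Htr3a line alone. Except for Htr1f, these genes had reads in 3 cells or fewer, and 0 of 23 cells has an exact interval up to 14.8%, or a limit of 13% if up to 3 cells are allowed for.

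Htr1f, a Gi/o-coupled receptor, had the largest difference between the lines in the number of cells among the 10 genes. It was read in 8 of 23 Htr3a-line cells (34.8%, 16.4 to 57.3) and in 0 of 23 Sst-line cells (up to 14.8%). Its level in the 8 Htr3a-line cells ran from 0.111 through a median of 13.7 to 64.7 CPM, highest in replicates 5 (64.7 CPM) and 2 (43.7 CPM). The lowest, replicate 4, held 1 read. With at least 10 CPM required, 5 Htr3a-line cells and 0 Sst-line cells were left, and after thinning Htr1f was read in 7 of 22 Htr3a-line cells and 0 of 23 Sst-line cells. Htr1f was 1 of 45 genes read in at least 5 Htr3a-line and 0 Sst-line cells, among 12217 genes read in at least 5 cells, 0.368%. The reverse held for 0.0327%. The 12217 include genes read in more than 23 cells, which cannot have 0 Sst-line cells. Htr1f was picked from the 10 genes by these same counts, so the shares given here are a description and not a test. Among the 323 genes read in exactly 8 cells, 4 were read in the Htr3a line alone, 1.24%. Summed over the line, Htr1f stood at 6.88 CPM in Htr3a-line cells (6.61 to 7.17), and at 4.39 CPM without replicate 5. The Sst line had 0 reads, where 3 reads would be 0.00813 CPM.

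Htr1a, the Gi/o-coupled receptor that also serves as the autoreceptor of raphe neurons, was read in both lines. Its reads lay in 8 of the 23 Htr3a-line cells (34.8%, 16.4 to 57.3) and in 6 of the 23 Sst-line cells (26.1%, 10.2 to 48.4). The levels in Htr3a-line cells fell into a high and a low range: 88.1, 85.9 and 94.4 CPM in replicates 5, 9 and 15, and 0.363 to 5.24 CPM in the other 5. The 6 Sst-line cells had 2.40 to 196.8 CPM with a median of 49.8 CPM, against a median of 5.22 CPM in the Htr3a-line cells. At 10 CPM or more there were 3 Htr3a-line cells and 5 Sst-line cells, the opposite order from the count of cells with any read. The summed level was 13.5 CPM over the Htr3a line (13.1 to 13.9) and 16.2 CPM over the Sst line (15.8 to 16.6). Without Sst-line replicate 21 the Sst line stood at 8.43 CPM, below the Htr3a line.

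Htr1b and Htr1d, Gi/o-coupled receptors known as terminal autoreceptors in rodents, were each read in 3 cells of the Htr3a line (13%, 2.78 to 33.6) and 0 of the Sst line (up to 14.8%). Htr1b had 94.9 CPM in Htr3a-line replicate 3, 10.8 CPM in replicate 22 and 2.85 CPM in replicate 10. Its summed level in the Htr3a line, 4.17 CPM, was 0.481 CPM without replicate 3. An antisense gene, D430036J16Rik, covers 18% of its exon bases, and since no source used here gives the strand setting of the counting, reads of the 2 genes cannot be told apart there. Htr1d had 11.4 CPM in replicate 7, 1.95 CPM in replicate 14 and 0.376 CPM in replicate 10, and its summed level of 0.674 CPM was 0.176 CPM without replicate 7. Htr5b, which forms a receptor in mice, was read in 0 of 23 Htr3a-line cells and 0 of 23 Sst-line cells, and 0 of 46 has an exact interval up to 7.71%, or a limit of 6.52% if up to 3 cells are allowed for.

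**Figure D2:**
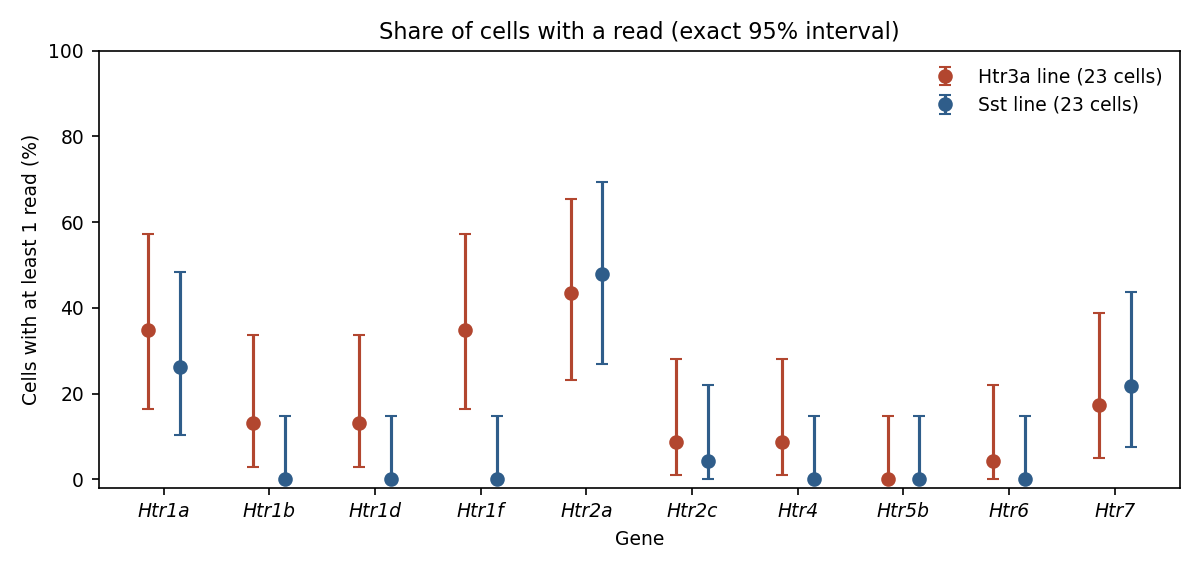
Share of cells with at least 1 read of each receptor gene, in percent, in the Htr3a line (left point of each pair) and the Sst line (right point), with exact 95% intervals over 23 cells each. Htr2a has 43.5% in the Htr3a line and 47.8% in the Sst line, and Htr1f has 34.8% in the Htr3a line and 0% in the Sst line.

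Htr2a, the Gq/11-coupled receptor on which serotonergic hallucinogens act, was the most often read. The cells with it were 10 of 23 in the Htr3a line (43.5%, 23.2 to 65.5) and 11 of 23 in the Sst line (47.8%, 26.8 to 69.4). In cells with a read, its level ran from 0.161 through a median of 40.3 to 162.0 CPM in the Htr3a line, and from 0.0569 through a median of 43.5 to 315.7 CPM in the Sst line. At 10 CPM or more were 9 Htr3a-line cells and 8 Sst-line cells, so most cells with the gene had it well above a few reads, and the ranges of the lines overlapped. Summed over each line, Htr2a stood at 23.9 CPM for the Htr3a line (23.4 to 24.4) and 31 CPM for the Sst line (30.5 to 31.6), and the Sst line stood at 17.5 CPM without its replicate 21.

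Htr2c, the other Gq/11-coupled receptor of the 10, whose transcript is known for RNA editing, was close to absent. It had 3 reads in Htr3a-line replicate 8 (0.310 CPM) and 17 in replicate 10 (0.914 CPM), and 72 reads in Sst-line replicate 21 (4.30 CPM). No cell of either line reached 10 CPM.

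Htr7 was the Gs-coupled receptor gene read most. The cells with it were 4 of 23 in the Htr3a line (17.4%, 4.95 to 38.8) and 5 of 23 in the Sst line (21.7%, 7.46 to 43.7). The Htr3a-line levels were 86.7, 88.5, 4.68 and 74.3 CPM in replicates 1, 3, 10 and 17. In the Sst line they were 36.4, 149.7, 53, 25.9 and 110.3 CPM in replicates 8, 9, 11, 14 and 18. Apart from Htr3a-line replicate 10, every cell with Htr7 thus held at least 25.9 CPM, and the lines overlapped. The level over each line was 11.8 CPM for the Htr3a line (11.4 to 12.1) and 15.8 CPM for the Sst line (15.4 to 16.2), and the Sst line stood at 7.05 CPM without its replicate 9.

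The other Gs-coupled receptor genes were rare. Htr4 had 45.8 CPM in Htr3a-line replicate 3 and 26.9 CPM in replicate 5, and 0 reads in the Sst line. Its summed level of 2.90 CPM in the Htr3a line was 1.15 CPM without replicate 3. Htr6 was read in 1 cell, Htr3a-line replicate 6, with 3129 reads (187.9 CPM). That cell had the fewest genes read in its line, 3350, and no other receptor gene of the 10.

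**Figure D3:**
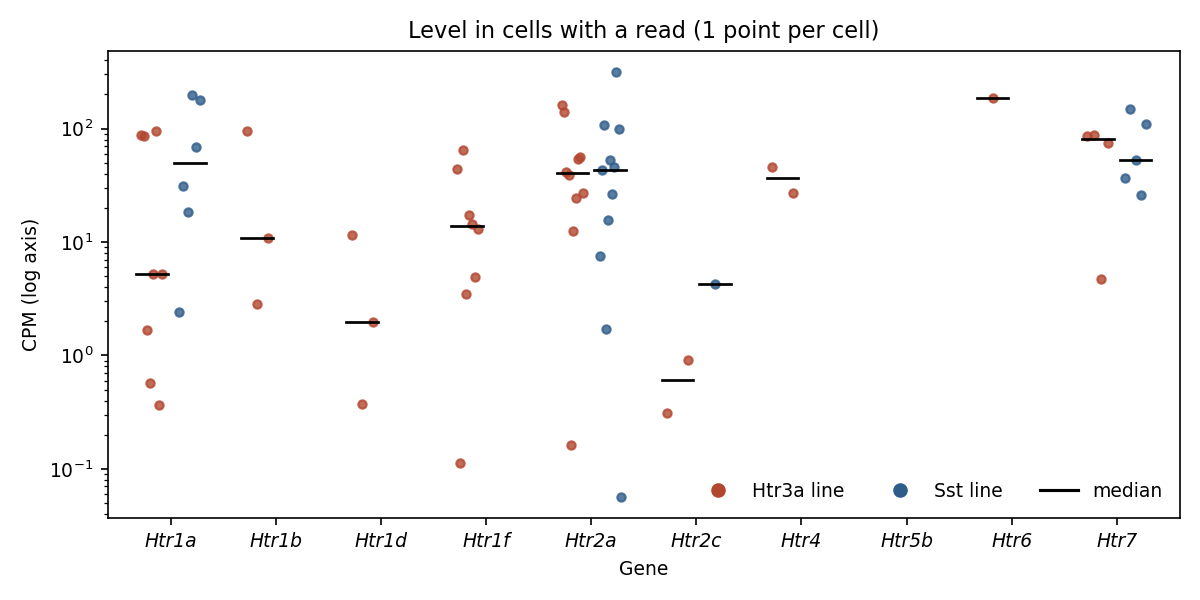
Level of each receptor gene in CPM on a log axis in the cells with a read, 1 point per cell, Htr3a line left and Sst line right for each gene, with a bar at the median. Points of the lines interleave for Htr1a, Htr2a and Htr7, and the medians of Htr2a are 40.3 CPM for the Htr3a line and 43.5 CPM for the Sst line.

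Levels of different genes were compared per kilobase of merged exons, over all cells of both lines with a read. The 1 cell with Htr6 stood highest at 80.3 CPM per kilobase. Htr7 followed with a median of 21.9 (1.38 to 44.0), then Htr2a with 7.42 (0.0101 to 56.3), Htr4 with 7.40 (5.47 to 9.34), Htr1a with 5.53 (0.0809 to 43.9), Htr1f with 5.32 (0.0432 to 25.1) and Htr1b with 2.29 (0.603 to 20.1). The place of Htr1a depended on the line: its median was 1.16 in the Htr3a line, below Htr1f and Htr1b there, and 11.1 in the Sst line, above Htr2a (7.75). In the order over both lines, each neighbour from Htr7 to Htr1b lay within the range of the next. Htr1d (median 0.610) and Htr2c (median 0.0980) were lowest. Over all cells, with 0 where there was no read, the summed level per kilobase was highest for Htr2a (4.92 CPM), then Htr7 (4.08 CPM) and Htr1a (3.32 CPM). In the Htr3a line by itself, Htr6, from its 1 cell, came after Htr2a (3.88 CPM, against 4.26 CPM).

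The line difference is the mean log2(CPM + 1) over Htr3a-line cells minus that over Sst-line cells, so a positive value means higher in the Htr3a line. Of the 4 receptor genes read in at least 5 cells, Htr1f was past 1 in size, with a mean of 1.23 ± 2.03 in Htr3a-line cells and 0 in Sst-line cells (SD between cells, n = 23 each). Over the 12217 genes read in at least 5 cells, 13.7% were higher in the Htr3a line by at least 1 and 3.87% lower, and the median difference was 0.20. The Htr1f difference of 1.23 was 0.45 with a pseudocount of 10 and 2.98 as the log2 ratio of summed CPM with 1 added, so its size rests on that choice, and none of these is a bound on a fold. Htr2a differed by -0.07, from 2.19 ± 2.85 in the Htr3a line and 2.26 ± 2.91 in the Sst line. Htr1a differed by -0.22 and Htr7 by -0.35, and the median of the 4 genes was -0.15. The Htr1a and Htr2a differences took either sign when single cells were left out, and Htr2a stood at 0.03 after thinning.

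By coupling class, Gi/o-coupled receptor genes were read in 13 of the 23 Htr3a-line cells (56.5%, 34.5 to 76.8) and in 6 of the 23 Sst-line cells (26.1%, 10.2 to 48.4). In the Sst line these were the Htr1a cells. Gq/11-coupled genes were read in 11 of 23 cells in each line (47.8%, 26.8 to 69.4). Gs-coupled genes were read in 6 Htr3a-line cells (26.1%) and 5 Sst-line cells (21.7%). Cells with Gq/11-coupled genes and no other class numbered 2 in the Htr3a line and 7 in the Sst line, and those with Gi/o-coupled genes alone 5 in the Htr3a line and 1 in the Sst line. All 3 classes were read together in 3 cells of each line. Without Htr3a-line replicates 4, 10 and 20, a set chosen after seeing the data, Gi/o-coupled genes were read in 55.0% of the 20 cells left and Gq/11-coupled genes in 50.0%.

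A cell held a median of 1 receptor gene in each line. In the Htr3a line 5 cells had 0 receptor genes, 8 had 1, 3 had 2, 4 had 3, 2 had 4 and 1 had 7, a mean of 1.78 ± 1.70 (SD between cells). In the Sst line 9 cells had 0, 9 had 1, 1 had 2 and 4 had 3, a mean of 1.0 ± 1.09. The counts in the Sst line were unchanged after thinning. The cell with 7, Htr3a-line replicate 10, had reads of Htr1a, Htr1b, Htr1d, Htr1f, Htr2a, Htr2c and Htr7, of which Htr1f alone reached 10 CPM (17.4 CPM).

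The number of receptor genes moved with the number of all genes read in a cell. Pearson's r was 0.69 and Spearman's rho 0.61 over the 23 Htr3a-line cells, and r was 0.53 without replicate 10. Over the 23 Sst-line cells r was 0.42 and rho 0.47. With total reads r was 0.22 in the Htr3a line and 0.04 in the Sst line. These are descriptions over cells that share a line, and the counts of genes include the receptors. The part of the greater number of genes read in the Htr3a line in the counts of receptor genes was not tested.

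**Figure D4:**
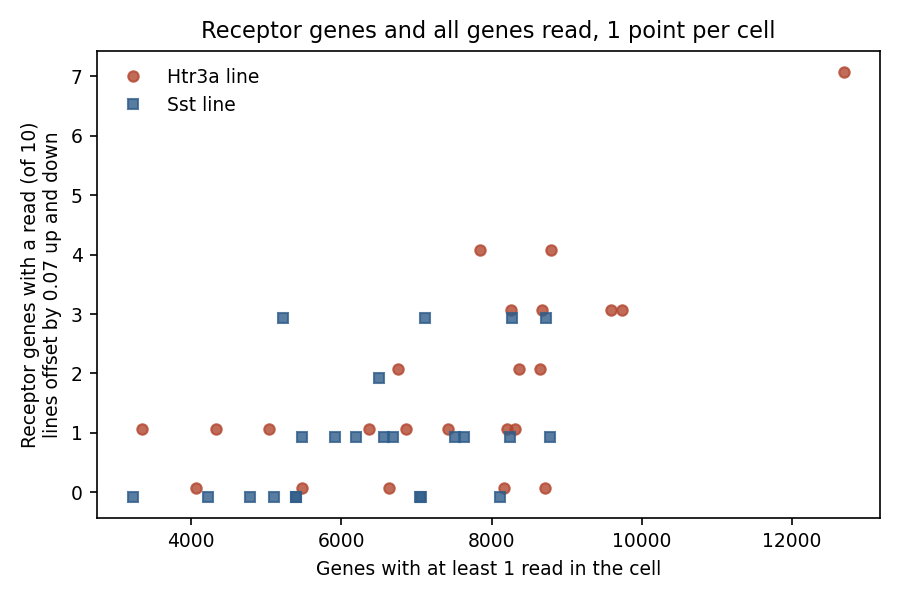
Number of the 10 receptor genes with a read against the number of all genes with a read, 1 point per cell, Htr3a line as circles and Sst line as squares, offset slightly up and down. Replicate 10 of the Htr3a line lies at 7 receptor genes and 12693 genes, and Sst-line cells reach at most 3 receptor genes.

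Htr1a and Htr2a were the pair most often read together, in 10 of 46 cells: 6 of the Htr3a line and 4 of the Sst line. Htr2a was read in 10 of the 14 cells with Htr1a (71.4%) and in 11 of the 32 without it (34.4%). The order was the same within each line, with 75.0% and 26.7% in the Htr3a line and 66.7% and 41.2% in the Sst line. Cells with Htr1a also had more genes read in all. The medians were 8731.5, against 6860 without it, in the Htr3a line and 6899, against 6196, in the Sst line. The same shares over all genes are not given here, and the part of genes read in this pairing was not tested. In 5 cells both genes reached 10 CPM, and without Htr3a-line replicate 10 the pair was read in 9 cells. Htr2a was the higher of the pair in 6 of the 10 cells, both in CPM and per kilobase. The extremes were Sst-line replicate 21, with 179.7 CPM of Htr1a and 315.7 CPM of Htr2a, and Htr3a-line replicate 10, with 31 reads of Htr1a and 3 of Htr2a.

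Htr7 was also read beside these genes. Htr2a was read in 6 of the 9 cells with Htr7 (66.7%) and 15 of the 37 without it (40.5%). Htr1a and Htr7 were read together in 1 cell of the Htr3a line and 4 of the Sst line. Among Sst-line cells, Htr7 was read in 4 of the 6 with Htr1a (66.7%) and 1 of the 17 without it (5.88%). Among Htr3a-line cells it was read in 1 of the 8 with Htr1a (12.5%) and 3 of the 15 without it. The difference between the lines was not tested.

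Of the receptor genes read in the Htr3a line alone, all but Htr6 were read beside Htr2a in some cells. Htr1f was read with Htr2a in 4 of 8 cells (50.0%), against 17 of the 38 cells without Htr1f (44.7%), and with Htr1a in 4. All 3 cells with Htr1b, all 3 with Htr1d and both with Htr4 had Htr2a reads, against 10 of the 23 Htr3a-line cells (43.5%). Replicate 10, with 3 reads of Htr2a, was among those with Htr1b and Htr1d, and without it each pair was read in 2 cells. Both genes reached 10 CPM in 2 cells for Htr1b, 1 for Htr1d and 2 for Htr4. The cells with Htr1b, Htr1d or Htr4 were replicates 3, 5, 7, 10, 14 and 22 of the Htr3a line.

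**Figure D5:**
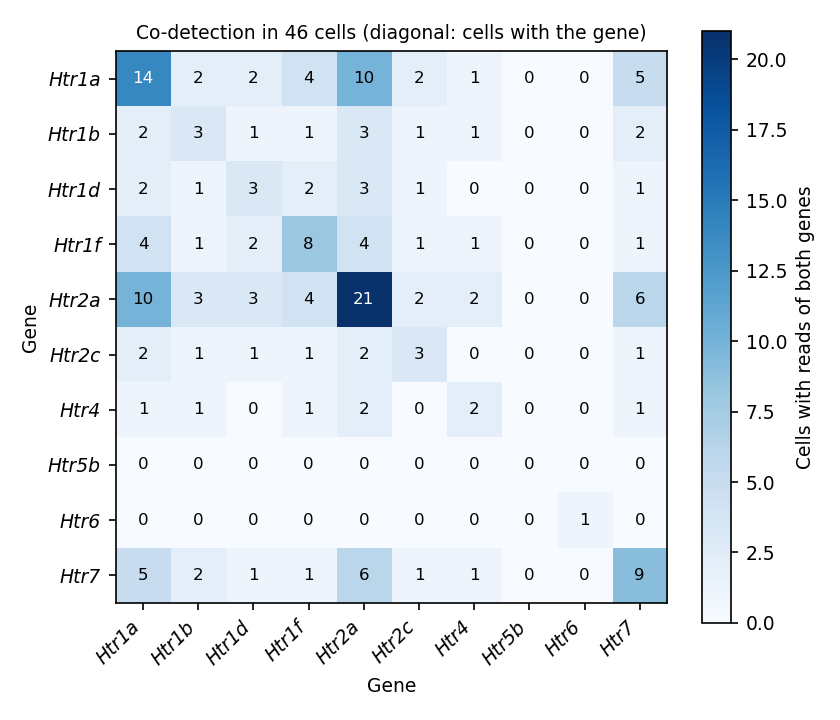
Number of the 46 cells with reads of both genes for each pair of receptor genes, with the number of cells with the gene itself on the diagonal. The largest count off the diagonal is 10, for Htr1a and Htr2a, followed by 6 for Htr2a and Htr7 and 5 for Htr1a and Htr7.

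Beside the receptor genes, genes read per cell and summed markers of other cells differed as well. Medians are given for cells with and without each gene, though not for every marker set. Genes read are given above for Htr1a. With Htr7 they were 8286, against 7422, in the Htr3a line and 7108, against 6382.5, in the Sst line. With Htr1f they were 8455.5, against 7845, in the Htr3a line. In the Htr3a line, cells with Htr2a had 8519.5 genes read, against 6860 without it, and in the Sst line 7514, against 5662. Their microglial markers stood at 1394 CPM, against 142 CPM without Htr2a, in the Htr3a line and 700 CPM, against 496 CPM, in the Sst line. Their oligodendrocyte markers stood at 319 CPM, against 93.8 CPM, in the Htr3a line and 286 CPM, against 147 CPM, in the Sst line. Both marker sets were thus higher with Htr2a in each line, while pyramidal markers were lower: 40.2 CPM, against 59.3 CPM, in the Htr3a line and 22.8 CPM, against 40.7 CPM, in the Sst line.

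For Htr1a, pyramidal markers stood at 50.4 CPM, against 41.5 CPM without it, in the Htr3a line and 80.1 CPM, against 10.7 CPM, in the Sst line. Microglial markers went opposite ways by line, with 1394 CPM, against 235 CPM, in the Htr3a line and 522 CPM, against 674 CPM, in the Sst line. Oligodendrocyte markers did so too, with 98.3 CPM, against 158 CPM, in the Htr3a line and 369 CPM, against 157 CPM, in the Sst line. For Htr7, oligodendrocyte markers stood at 283 CPM, against 114 CPM, in the Htr3a line and 286 CPM, against 193 CPM, in the Sst line. Pyramidal markers beside it stood at 62.08 CPM, against 38.98 CPM, in the Htr3a line and 75.01 CPM, against 23.78 CPM, in the Sst line. Astrocyte markers beside it stood at 158.2 CPM, against 22.61 CPM, in the Htr3a line and 16.97 CPM, against 1.839 CPM, in the Sst line. Microglial markers went opposite ways, with 419.6 CPM, against 477 CPM, in the Htr3a line and 699.7 CPM, against 569.8 CPM, in the Sst line. For Htr1f, in the Htr3a line, astrocyte markers stood at 122 CPM, against 9.88 CPM, and microglial markers at 201 CPM, against 496 CPM. The part of other cells in the receptor reads was not tested.

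The genes most like Htr2a across the 46 cells, by Pearson's r of log2(CPM + 1) among 10560 genes, were Neo1, the receptor neogenin (r = 0.64, read in 19 of the 21 Htr2a cells), and Abcb4, a phospholipid transporter (r = 0.63). For Htr1a they were Ascc2 (r = 0.70) and Midn (r = 0.59). Of the 46 cells, Neo1 was read in 23, Abcb4 in 10, Ascc2 in 19 and Midn in 21. Each was picked for its high r among 10560 genes, so these values are a description and not a test. Htr1a and Htr2a themselves had r = 0.26. By r, Htr2a ranked 877 of 10560 genes for Htr1a, and Htr1a ranked 1407 for Htr2a.

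Genes of the G protein routes, of receptor regulation, of serotonin handling and of RNA editing were read to very different extents. Of 47 listed genes, 46 had a read and 35 were read in at least 5 cells. Of these, 3 were higher in the Htr3a line by at least 1, 0 were lower by at least 1, and the median difference was 0.34. Over all genes read in at least 5 cells, 13.7% were higher and 3.87% lower by that much, and the median was 0.20. Among Gi/o subunits, 1 of 5 passed: Gnaz, which averaged 5.0 ± 2.67 in Htr3a-line cells and 3.66 ± 3.06 in Sst-line cells (log2(CPM + 1), SD between cells), a difference of 1.34. Gnai3 differed by 0.92 and Gnao1, the main neuronal Go subunit, by 0.63. Both tested GIRK channel genes were under 1, with Kcnj9 at 0.81 and Kcnj3 at 0.72.

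For the Gq/11 route, 1 of 6 passed, the phospholipase C gene Plcb4, with 3.88 ± 2.86 in the Htr3a line and 2.60 ± 3.13 in the Sst line. The subunit genes Gnaq and Gna11 differed by 0.35 and -0.54. For the Gs route, 1 of 9 passed, the adenylyl cyclase gene Adcy3, with 4.81 ± 3.01 in the Htr3a line and 3.49 ± 3.51 in the Sst line. Adcy6 differed by -0.70 and Adcy1 by 0.62. The SD between cells exceeded the differences of Gnaz, Plcb4 and Adcy3. By the log2 ratio of summed CPM, these were 0.88 for Gnaz, 0.27 for Plcb4 and 0.37 for Adcy3, and Gnai3, Gnaq and Kcnj9 took the opposite sign (-0.10, -0.87 and -0.14).

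Of 8 tested partner and desensitization genes, 0 passed in either direction. The arrestin gene Arrb2 differed by -0.98, and the receptor kinase genes Grk6 and Adrbk1 by 0.96 and -0.81. The RNA-editing enzyme genes Adar and Adarb1 differed by -0.33 and 0.02. By summed CPM, Grk6 and Adarb1 took the opposite sign (-0.50 and -0.29). Of the genes for serotonin handling, Slc18a2, the vesicular monoamine transporter, was read in 11 Htr3a-line cells and 5 Sst-line cells, and Maoa, a monoamine oxidase, in 9 Htr3a-line cells and 7 Sst-line cells. The serotonin transporter gene Slc6a4 had reads in 0 Htr3a-line cells and 1 Sst-line cell, and Tph2, the neuronal enzyme of serotonin synthesis, in 1 cell, of the Htr3a line.

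Among the other serotonin receptor genes, the channel subunit gene Htr3a was read in 5 Htr3a-line cells and 2 Sst-line cells, and Htr3b in 11 Htr3a-line cells and 0 Sst-line cells. At least 1 of the 10 metabotropic receptor genes was read in 6 of the 7 cells with Htr3a and 8 of the 11 with Htr3b. Over all cells this held for 32 of 46 (69.6%). Over the Htr3a line, which holds all 11 cells with Htr3b, it held for 18 of 23 (78.3%). Htr2b and Htr5a are also genes of metabotropic receptors, but are not among the 10 and are left out of the counts above. Htr2b was read in 0 of 46 cells. Htr5a reads lay in 2 Htr3a-line cells and 2 Sst-line cells, with up to 28.9 CPM. All 4 cells also had Htr2a, which was read in 21 of all 46 cells.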

How the data were processed

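The authors deposited raw read counts per gene for 46 single cells, by symbol (22800 genes, used here) and by Ensembl identifier. Per the submitters' processing notes, the tools were Trimmomatic, STAR and featureCounts and the build was GRCm38. Tool versions, gene annotation and strandedness were not given in the sources used here. The deposited normalized table is a signal: dividing each cell's counts by a single factor (0.144 to 2.09) gave 100% of its values to within 0.1%.

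Counts were scaled to CPM by each cell's total and expressed as log2(CPM + 1) in Python 3.11.15. A gene was read in a cell with at least 1 read. A line difference was compared with 1 for genes read in at least 5 cells. Merged exon lengths came from GENCODE M21. The line difference was tested on simulated counts, with known changes put only into genes above a minimum mean level. Its behaviour for genes absent from most cells, as each of the receptor genes was, was not tested. Shares of cells and co-detection were not tested on simulated data.

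The named genes are the 10 receptors and the other serotonin receptor genes. From each signalling list came up to 3 genes of largest difference among those read in at least 12 cells. The 2 genes most like each receptor read in at least 10 cells were added. Tph2 and Slc6a4 were chosen after their values were seen. The members and lists were chosen with earlier results of these data known. Alternatives were minima of 5 reads or 10 CPM, thinning to 5000000 reads, a pseudocount of 10, edgeR 4.0.16 (TMMwsp) and DESeq2 1.42.0 (poscounts) size factors, the normalized table, summed CPM and leaving out each cell. Those for pairs of genes, and leaving out 3 cells together, were chosen after seeing the data.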

Additional observations from a re-analysis of the deposited data

How the results depend on the processing

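No paired analysis was possible because replicate numbers only name cells in accession order and no test was made. Of 1741 alternative values for 59 results, 16 moved beyond the spread between cells, the interval of the share or 1.5 times a count. Leaving out cells gave 1507 of these values, of which 2 moved, and other settings gave 234, of which 14 moved. These limits are wide, and leaving out 1 cell can seldom move a value past them. The low count is therefore not a measure of how stable the results are. The 1 receptor gene difference past 1, that of Htr1f, could not turn negative, since the Sst line had 0 reads of it. Among the smaller differences, those of Htr1a, Htr2a and Htr2c took either sign. Htr1a and Htr2a were read together in 21.7% of cells, and at 10 CPM in 10.9%. The 1 receptor gene past a difference of 1 became 0 with a pseudocount of 10. Genes higher in the Htr3a line by at least 1 numbered 1669, against 3717 in the deposited normalized table and 185 with a pseudocount of 10. Genes lower numbered 473, against 1019 in the normalized table, 89 with a pseudocount of 10 and 1246 by summed CPM. The median over all genes was 0.20, and lay between -0.003 by summed CPM and 0.42 in the normalized table.

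When each cell was left out in turn, genes higher ranged from 1489 to 2000 and genes lower from 382 to 610. Few cells hold each rare receptor gene, and 0 of 23 cells limits cells with a read, not cells expressing the gene.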
